A study of Homo sapiens with 35 samples.

Results

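The genes described here are the ligands and receptors that steer growing axons: semaphorins with their plexin and neuropilin receptors, ephrins with their Eph receptors, slits with their Robo receptors, and netrins with DCC and the UNC5 receptors. They were taken by gene symbol, from every probe set that carries exactly 1 symbol of these families, and the probe set with the highest mean log2 intensity stood for its gene. This gave 58 of the 11940 genes measured, from 97 of 22930 probe sets. There were 31 ligands (17 semaphorins, 8 ephrins, 3 slits and 3 netrins) and 27 receptors (8 plexins, 2 neuropilins, 10 Eph receptors, 3 Robo receptors and 4 netrin receptors).

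The cells were BE(2)-C, an established human neuroblastoma line with extra copies of MYCN, and all groups therefore share 1 cell line and its genotype. ATRA (all-trans retinoic acid, which acts through nuclear retinoid receptors) was given at 5 µM, VPA (valproic acid, an inhibitor of histone deacetylases) at 1 mM, the combination at both doses, and control cells received the vehicle, DMSO. RNA was taken after 6, 24 or 72 h, which makes 12 groups of 3 arrays, except DMSO at 72 h with 2 arrays. Nothing in the labels says that the replicates were separate cultures or days, so p-values measure the spread between these samples, which may be technical.

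As background, guidance cues act at short or long range on the growth cone, the motile tip of an axon. Secreted class 3 semaphorins bind neuropilins, which signal through plexins, while the membrane-bound classes bind plexins directly. Ephrins of the A class are tethered to the membrane by a lipid anchor and those of the B class cross it, and both signal to Eph receptor tyrosine kinases on the neighbouring cell. Slits repel through Robo receptors, and netrins attract through DCC or repel through UNC5 receptors. Sympathetic neurons, the lineage from which neuroblastoma arises, use semaphorin and neuropilin signals when their precursors migrate and their axons grow.

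Values are RMA intensities on a linear scale. Changes are log2 differences of intensity plus 1 with their standard errors from a limma fit of all 35 arrays, and a gene is said to have risen or fallen where its p-value, adjusted over all 11940 genes in that comparison, was under 0.05. The arrays carry no detection calls. Their lower quartiles lay between 20.8 and 23.6, and the highest group mean of 7 members (EFNA2, NTN3, NTNG1, EPHA3, EPHA7, EPHB6 and DCC) was below 23.6, so no level above background was shown for them. In each comparison with the vehicle, all 3 treatments of a time share the same DMSO arrays, so their changes are not independent of each other. Cells were measured in bulk, so fewer cells that express a gene and less RNA per cell cannot be told apart.

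Of 9 noradrenergic neuroblastoma markers measured, 8 averaged over 100, among them MYCN, PHOX2A, GATA3 and DBH, and HAND2 averaged 32.7. Of 5 endothelial markers, PECAM1, KDR and VWF were below 23.6 in all groups, while CDH5 reached a group mean of 25.6 and TEK one of 49.9. Of 4 blood cell markers, PTPRC and CD68 were below 23.6, while CD3E reached 30.2 and CD14 38.1. Of 8 mesenchymal markers, 4 averaged over 100, among them VIM (group means of 3508 to 6685) and COL3A1 (58.5 to 210), and COL1A1 ranged between 20.6 and 128. Of 5 epithelial markers, the keratin KRT19 ranged between group means of 46.5 and 456, and KRT18 between 29.9 and 115. The highest group means of EPCAM, CDH1 and KRT8 were 37.5, 26.0 and 32.5. Of 5 Schwann and glial markers 3 were measured, and SOX10, S100B and GFAP reached group means of 47.3, 27.2 and 25.3. The part of these markers in the results was not tested. CYP26A1, which degrades retinoic acid and is a readout of it, averaged 621 ± 134 in ATRA and 22 ± 0.22 in DMSO at 72 h (SD, n = 3 and 2). CRABP2, a retinoic acid binding protein, averaged 3798 ± 281 in ATRA and 285.7 ± 12.3 in DMSO at that time. DMSO 24 h replicate 1 stood apart, with a median intensity of 43.6 against 53.1 to 58.9 on the other arrays, and 218 genes on it were at least 1 in log2 lower than in the mean of DMSO 24 h replicates 2 and 3. The log2 ratio of 3′ to 5′ control probe sets is a sign of RNA quality and labelling. Its group means were 0.202 to 0.444 at 6 h, 1.6 in VPA against 1.05 in DMSO at 24 h, and 1.82 in ATRA against 1.06 in DMSO at 72 h. ATRA plus VPA 6 h replicate 1 had a ratio of 0.906, against 0.188 and 0.063 on replicates 2 and 3. On it 56 genes were at least 1 in log2 lower than in the mean of those replicates. VPA 24 h replicate 2 had 2.33, against 1.25 and 1.22 on replicates 1 and 3. Beside many named calls it is stated where they were lost without 1 array or with the 3′ to 5′ ratio in the fit. A call without such a note was not necessarily kept under every alternative.

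Across the 9 comparisons with DMSO, 35 of 58 guidance genes (60.3%) passed the test at least once, against 55.1% of all genes, and the other 23 passed in none. By family both neuropilins and 7 of 8 plexins passed, against 3 of 10 Eph receptors. Of the 13 members whose mean intensity was over 100, 12 passed, against 23 of the 45 others. Among those 13 were 4 plexins and 0 Eph receptors. The genes with the most calls were EPHA2, which passed in 8 of the 9 comparisons, and EFNB3, EPHB3 and NRP1, which passed in 6 each. Of 107 calls against DMSO, 22 were of at least 1 in log2, and all 22 were kept under every alternative processing and without any single array. Of the 107, 49 were lost under at least 1 such change.

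**Figure D1:**
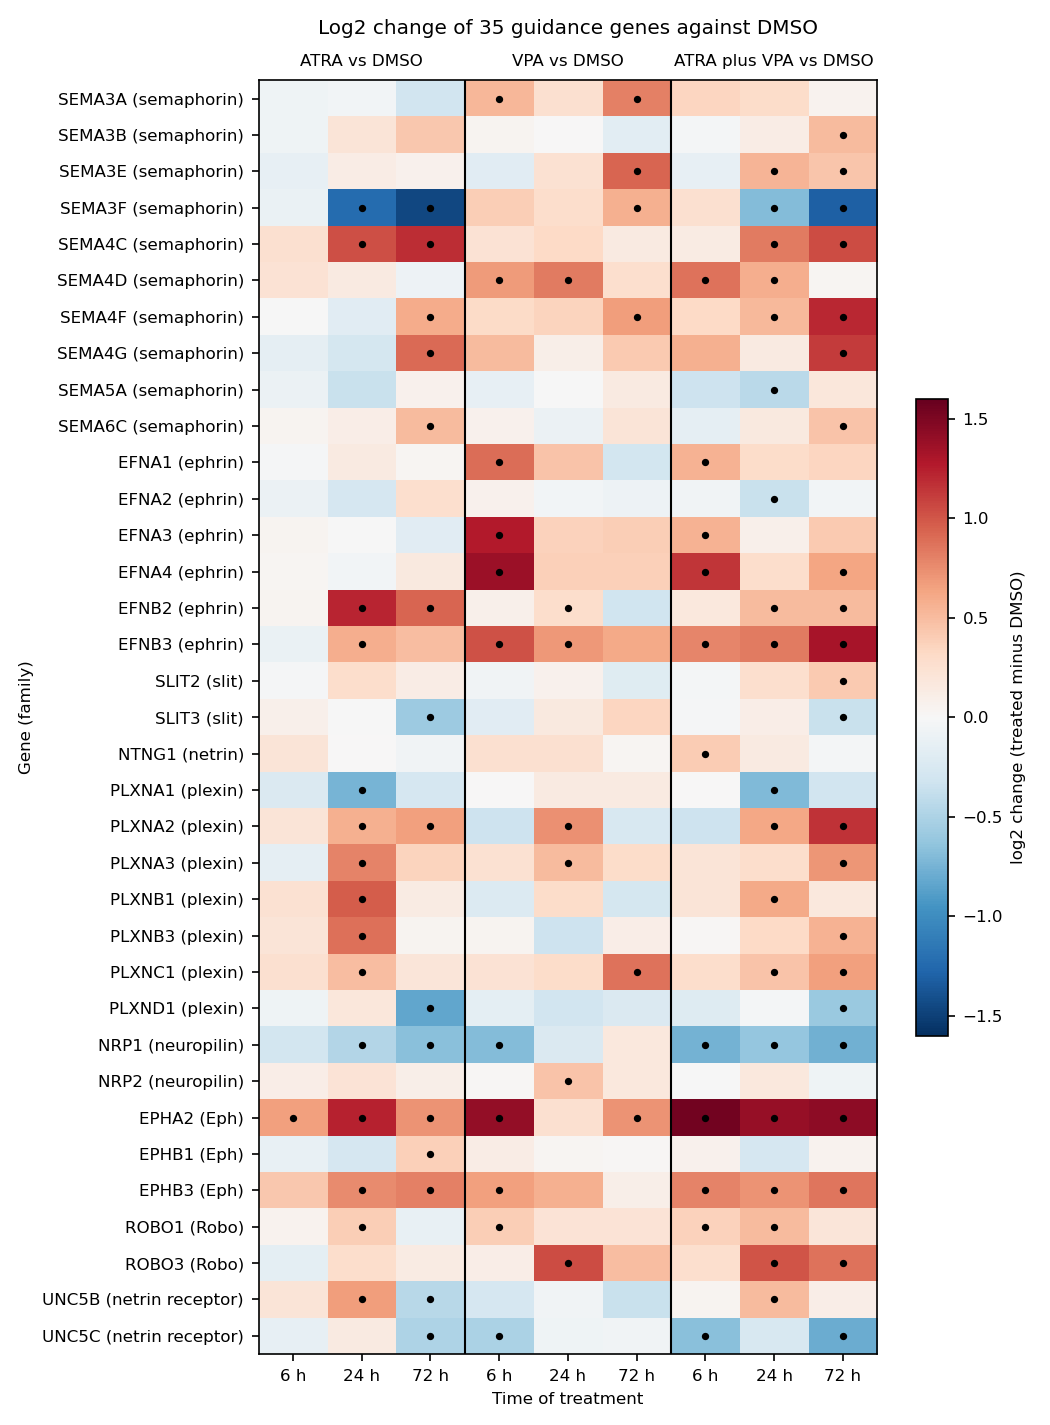
Log2 change of the 35 guidance genes that passed the test in at least 1 comparison with DMSO, by gene (rows, grouped by family) and by treatment and time (columns). Red marks a higher and blue a lower level in the treated cells than in DMSO cells, and a dot marks an adjusted p under 0.05. EPHA2 is dotted in 8 of 9 columns, while SEMA3F is blue at 24 h and 72 h of both treatments that contain ATRA.

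At 6 h the response of guidance genes came with VPA. With VPA, 9 members (15.5%) rose, against 6.46% of all genes, and 2 (3.45%) fell, against 4.7% of all genes. With ATRA at 6 h, 1 member rose, against 1.03% of all genes, and 0 fell, against 0.586% of all genes. The combination raised 9 members, against 6.73% of all genes, and lowered 2, against 4.87% of all genes. At 24 h ATRA raised 12 members (20.7%), against 12.5% of all genes, and lowered 3, against 6.03% of all genes. VPA raised 7 at 24 h, against 9.66% of all genes, and lowered 0, against 2.49% of all genes. The combination at 24 h raised 14 (24.1%), against 13.5% of all genes, and lowered 5, against 7.79% of all genes.

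At 72 h the largest number of members moved with the combination, of which 17 (29.3%) rose, against 14.9% of all genes, and 5 (8.62%) fell, against 16.6% of all genes. ATRA raised 9 members (15.5%) at 72 h, against 10.7% of all genes, and lowered 6 (10.3%), against 20.2% of all genes. VPA raised 6 (10.3%), against 4.51% of all genes, and lowered 0, against 2.15% of all genes. The median change over all 58 members was small in every comparison with DMSO. It was 0.11 with ATRA and 0.08 with the combination at 72 h, where the medians of all genes were 0.00 and -0.01. The members that moved were thus a minority in each comparison, and they are described by family below.

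Of the 5 ephrins of the A class, 3 rose with VPA at 6 h, against 6.46% of all genes. EFNA4, EFNA3 and EFNA1, membrane-anchored ligands of EphA receptors, lie in that order next to each other on chromosome 1 with no other protein-coding gene between them except a read-through of EFNA4 into EFNA3, so the signals of EFNA4 and EFNA3 may share transcripts. EFNA4 measured 60.0, 60.3 and 39.2 on the VPA arrays of 6 h, 54.1, 36.4 and 45.0 on those of the combination and 21.2, 19.7 and 19.2 on those of ATRA, against 20.7, 20.1 and 18.2 on the DMSO arrays. Every VPA and combination array was above every DMSO array, and the ATRA arrays overlapped the DMSO arrays. The rise was 1.37 ± 0.13 with VPA (2.58-fold, adjusted p = 1.4e-08) and 1.14 ± 0.13 with the combination (adjusted p = 2.3e-07).

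EFNA3 measured 149, 147 and 145 on the VPA arrays of 6 h, 96.2, 69.6 and 107 on those of the combination and 71.9, 58.8 and 56.8 on those of ATRA, against 47.6, 60.9 and 76.0 on the DMSO arrays. All 3 VPA arrays stood above every other array of that time, while the combination overlapped DMSO. The change was 1.27 ± 0.17 with VPA (2.41-fold, adjusted p = 3.1e-06) and 0.56 ± 0.17 with the combination (adjusted p = 0.023). The second of these calls was lost in 4 of the 6 fits that left out 1 array of either group. EFNA1 measured 45.1, 58.8 and 65.6 with VPA and 42.0, 44.9 and 44.8 with the combination, against 27.0, 27.7 and 34.5 with DMSO. Its rise was 0.90 ± 0.16 with VPA (adjusted p = 0.00019) and 0.55 ± 0.16 with the combination (adjusted p = 0.018), with no overlap of the arrays. The combination's call was lost in 4 of the 6 fits without 1 array, at 0.49 to 0.54.

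With VPA alone none of the 3 passed the test at 24 h or 72 h. EFNA4 measured 31.6, 30.1 and 25.8 in VPA against 24.0, 20.9 and 21.7 in DMSO at 24 h, and 23.8, 24.9 and 25.1 in VPA against 19.1 and 18.1 in DMSO at 72 h. No arrays overlapped, and the changes of 0.38 ± 0.13 and 0.39 ± 0.14 did not pass (adjusted p = 0.055 and 0.12). The VPA effect on EFNA4 was smaller at 72 h than at 6 h by -0.98 ± 0.19 (adjusted p = 0.0031), and that on EFNA1 by -1.19 ± 0.24 (adjusted p = 0.0032), which did not pass without DMSO 72 h replicate 1, at -0.97. With the combination at 72 h EFNA4 measured 31.2, 26.9 and 29.8, and its rise of 0.63 ± 0.14 passed (adjusted p = 0.00097). The other A ephrins behaved otherwise: EFNA5, which repels retinal and cortical axons, passed in no comparison, and EFNA2 passed only as a fall of -0.35 ± 0.12 with the combination at 24 h, at a level below the lower quartile and lost in 4 of the 6 fits without 1 array. The lowest EFNA4 levels lie near that quartile too, and with a pseudocount of 32 the rise with VPA at 6 h was 0.71.

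The sequences upstream of these genes and of EPHA2, an EphA receptor, are shown as a choice among the 9 members that rose with VPA at 6 h. The other risers were EFNB3 (1.02), SEMA4D (0.68), EPHB3 (0.66), SEMA3A (0.53) and ROBO1 (0.39), whose windows are not shown. Those of EFNB2 and SEMA4C, ligands that rose with ATRA, follow for comparison. Each is the 250 bases before a transcription start in RefSeq (build GRCh38.p14), 5′ to 3′ on the gene's strand, and capitals mark the GC box GGGCGG or its reverse complement CCGCCC. The windows are EFNA4 at chr1:155063490-155063739 (plus strand), EFNA3 at chr1:155078587-155078836 (plus strand), EFNA1 at chr1:155127626-155127875 (plus strand), EPHA2 at chr1:16156070-16156319 (minus strand), EFNB2 at chr13:106535663-106535912 (minus strand) and SEMA4C at chr2:96870081-96870330 (minus strand). The SEMA4C window lies inside the gene's span (96859718 to 96870830), before an internal start.
EFNA4: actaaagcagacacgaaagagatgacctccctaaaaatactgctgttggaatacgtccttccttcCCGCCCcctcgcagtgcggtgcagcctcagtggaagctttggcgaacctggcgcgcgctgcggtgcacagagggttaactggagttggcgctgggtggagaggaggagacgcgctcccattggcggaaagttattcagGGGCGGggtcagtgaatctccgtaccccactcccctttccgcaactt
EFNA3: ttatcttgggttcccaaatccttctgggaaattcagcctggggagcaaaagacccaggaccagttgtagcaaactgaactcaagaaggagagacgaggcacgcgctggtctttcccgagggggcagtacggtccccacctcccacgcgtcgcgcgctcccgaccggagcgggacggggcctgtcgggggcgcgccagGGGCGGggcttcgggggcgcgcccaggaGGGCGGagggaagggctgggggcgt
EFNA1: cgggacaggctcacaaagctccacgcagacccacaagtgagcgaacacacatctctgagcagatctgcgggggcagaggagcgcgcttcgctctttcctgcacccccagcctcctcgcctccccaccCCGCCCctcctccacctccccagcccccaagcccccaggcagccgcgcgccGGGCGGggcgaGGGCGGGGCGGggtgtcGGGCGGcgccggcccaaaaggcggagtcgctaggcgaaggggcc
EPHA2: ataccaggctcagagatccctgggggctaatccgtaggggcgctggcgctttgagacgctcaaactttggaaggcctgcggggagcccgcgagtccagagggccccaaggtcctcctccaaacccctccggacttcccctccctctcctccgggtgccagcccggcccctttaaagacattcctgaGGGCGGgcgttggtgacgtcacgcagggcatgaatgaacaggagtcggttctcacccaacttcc
EFNB2: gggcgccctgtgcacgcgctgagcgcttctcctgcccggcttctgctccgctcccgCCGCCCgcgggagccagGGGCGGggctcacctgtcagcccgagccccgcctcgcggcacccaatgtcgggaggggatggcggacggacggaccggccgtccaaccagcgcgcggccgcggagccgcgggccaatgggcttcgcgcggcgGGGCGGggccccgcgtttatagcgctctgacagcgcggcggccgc
SEMA4C: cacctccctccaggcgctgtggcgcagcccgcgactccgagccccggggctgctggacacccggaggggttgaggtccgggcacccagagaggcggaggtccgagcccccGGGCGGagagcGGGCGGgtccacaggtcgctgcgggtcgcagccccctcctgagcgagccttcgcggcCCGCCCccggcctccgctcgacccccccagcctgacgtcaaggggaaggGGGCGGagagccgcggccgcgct
Counting both strands and overlapping copies, the windows of EFNA4 and EFNA3 hold 2 GC boxes each, EFNA1 holds 5, EPHA2 1, EFNB2 3 and SEMA4C 4. RefSeq windows were matched for 50 of the 58 members, 76 windows in all, and 55 of these (72.4%) hold a GC box, against 42.6% of 35116 windows of all genes. The median GC content was 64.6% in the members' windows and 58.0% in all windows. AGGTCA, the core motif of many nuclear receptors, is in 9.21% of member windows against 12.1% of all, and AGTTCA, its retinoid variant, in 9.21% against 8.80%. These are letters in a window and were not tested for use.

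Of the 3 ephrins of the B class, EFNB2 and EFNB3 passed and EFNB1 did not. EFNB2, a marker of arteries that also signals back into the cell that carries it, measured 764, 742 and 775 on the ATRA arrays of 24 h, 379, 433 and 387 on those of VPA and 450, 464 and 480 on those of the combination, against 302, 324 and 359 on the DMSO arrays. ATRA arrays stood above all others, and combination arrays lay between ATRA and DMSO arrays without overlap. The rise was 1.21 ± 0.09 with ATRA (2.32-fold, adjusted p = 2.6e-11), 0.28 ± 0.09 with VPA (adjusted p = 0.041) and 0.50 ± 0.09 with the combination (adjusted p = 0.00014). The VPA call was lost without DMSO 24 h replicate 1, without 3 other single arrays and in 4 other fits. A second EFNB2 probe set gave 1.43 with ATRA.

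At 72 h EFNB2 measured 900, 1082 and 1030 with ATRA, 458, 395 and 415 with VPA and 701, 747 and 790 with the combination, against 501 and 551 with DMSO. The order was the same as at 24 h, except that the VPA arrays lay below those of DMSO. ATRA raised it by 0.93 ± 0.10 (adjusted p = 4e-08) and the combination by 0.50 ± 0.10 (adjusted p = 0.00027), while the VPA change of -0.32 ± 0.10 did not pass. At 6 h it measured between 292 and 377 over all 12 arrays, with no call.

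EFNB3, the B ephrin that in mice keeps corticospinal axons from recrossing the midline, rose with VPA at 6 h and with the combination at every time. It measured 192, 171 and 186 with VPA and 177, 150 and 141 with the combination at 6 h, against 94.4, 86.5 and 87.9 with DMSO. Its rise was 1.02 ± 0.19 with VPA (2.03-fold, adjusted p = 0.00028) and 0.79 ± 0.19 with the combination (adjusted p = 0.004). At 72 h it measured 223, 262 and 253 with the combination, 168, 106 and 148 with ATRA and 148, 121 and 188 with VPA, against 85.3 and 113 with DMSO. The combination arrays were all above the single-agent arrays, and only the combination passed (1.31 ± 0.21, adjusted p = 8.5e-06).

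At 24 h EFNB3 measured 120, 127 and 101 with ATRA, 114, 128 and 135 with VPA and 127, 149 and 139 with the combination, against 50.6, 100.1 and 89.8 with DMSO. The lowest DMSO value was that of replicate 1. The changes of 0.58 ± 0.19 with ATRA and 0.70 ± 0.19 with VPA lost their calls without it, at 0.28 and 0.40, that with ATRA also without ATRA 24 h replicate 1 or 2. The call of the combination (0.83 ± 0.19, adjusted p = 0.0013) was kept without any single array, but it was lost under another alternative. A dim second probe set of EFNB3 gave -0.15 with the combination at 72 h. EFNB1 passed in no comparison with DMSO.

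**Figure D2:**
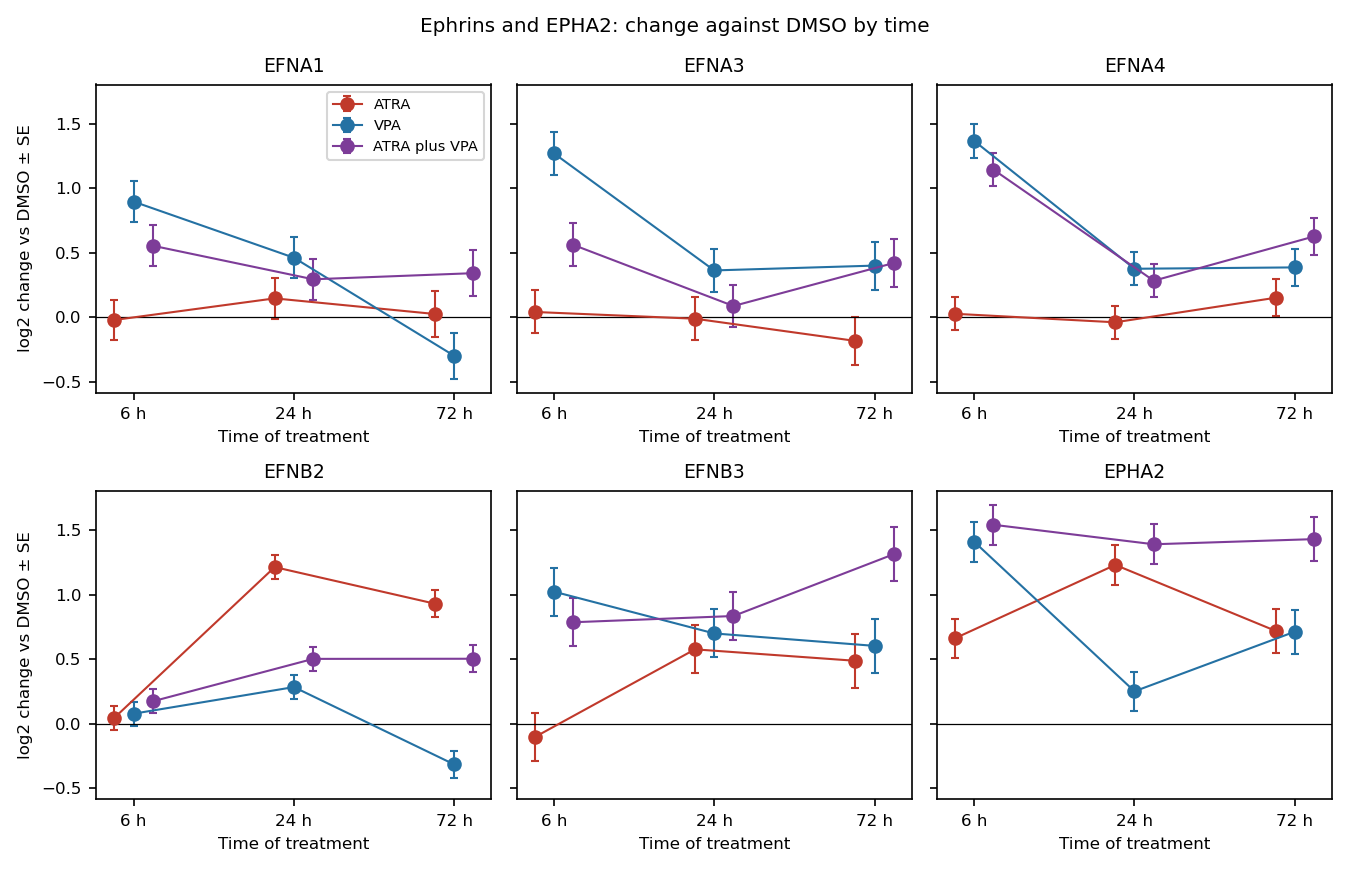
Log2 change against DMSO ± SE of 5 ephrins and of EPHA2 at 6 h, 24 h and 72 h, for ATRA, VPA and their combination. EFNA1, EFNA3 and EFNA4 are highest with VPA at 6 h, EFNB2 is highest with ATRA at 24 h, and EPHA2 stays near 1.4 to 1.5 with the combination at all 3 times.

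Among Eph receptors, EPHA2, a receptor of A ephrins that is found in many epithelia and tumours, rose the most. It measured 80.1, 78.3 and 89.2 on the VPA arrays of 6 h, 112, 91.6 and 71.7 on those of the combination and 40.7, 53.5 and 53.0 on those of ATRA, against 28.8, 32.1 and 30.4 on the DMSO arrays. All 9 treated arrays were above the 3 DMSO arrays. The rise was 1.41 ± 0.15 with VPA (2.66-fold, adjusted p = 1.5e-07) and 1.54 ± 0.15 with the combination (2.91-fold, adjusted p = 2.8e-08). The rise with ATRA at 6 h, the only call of a member there, was 0.66 ± 0.15 (adjusted p = 0.016), and it was lost with a pseudocount of 32, at 0.37, and in 4 of the 6 fits without 1 array, at 0.60 to 0.66.

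At 24 h EPHA2 measured 100.6, 88.5 and 82.8 with ATRA, 109, 88.7 and 107 with the combination and 42.5, 45.2 and 48.6 with VPA, against 34.3, 43.2 and 36.9 with DMSO. The ATRA and combination arrays lay far above the DMSO arrays, and the VPA arrays overlapped them. ATRA raised it by 1.23 ± 0.15 (adjusted p = 4.4e-07) and the combination by 1.39 ± 0.15 (adjusted p = 4.4e-08), while the VPA change of 0.25 ± 0.15 did not pass. At 72 h it measured 77.8, 87.0 and 103 with the combination, 43.1, 60.0 and 60.0 with ATRA and 50.2, 66.8 and 45.5 with VPA, against 34.5 and 30.1 with DMSO. All treated arrays were above DMSO, with rises of 1.43 ± 0.17 (adjusted p = 8.8e-08), 0.72 ± 0.17 (adjusted p = 0.0016) and 0.71 ± 0.17 (adjusted p = 0.0075). The VPA call was lost without DMSO 72 h replicate 2, at 0.62, and without VPA 72 h replicate 2, at 0.56.

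EPHB3, a receptor of B ephrins with roles in commissural axons and gut crypts, rose in 6 comparisons by 0.66 to 0.85. It measured 57.8, 68.0 and 54.5 with VPA, 76.7, 60.0 and 61.5 with the combination and 44.1, 61.5 and 48.4 with ATRA at 6 h, against 41.0, 34.0 and 37.9 with DMSO. At 24 h it measured 55.4, 65.1 and 66.0 with ATRA, 81.3, 48.7 and 55.4 with the combination and 52.5, 55.2 and 55.4 with VPA, against 22.5, 51.4 and 40.6 with DMSO, of which the lowest is replicate 1. At 72 h it measured 86.6, 66.4 and 85.2 with ATRA, 75.3, 90.9 and 78.0 with the combination and 45.1, 48.7 and 48.6 with VPA, against 52.7 and 37.6 with DMSO. The treated arrays were above DMSO at 6 h, the combination overlapped it at 24 h, and VPA overlapped it at 72 h. With the combination it rose at all 3 times (0.79, 0.72 and 0.85), and with ATRA at 24 h and 72 h (0.76 and 0.81). Without DMSO 24 h replicate 1 the 24 h changes were 0.43 with ATRA and 0.39 with the combination, and neither passed, nor did the second without ATRA plus VPA 24 h replicate 1, at 0.51. The 72 h calls were lost without DMSO 72 h replicate 2, at 0.57 with ATRA and 0.61 with the combination. The VPA call at 6 h was lost in 4 of the 6 fits without 1 array, at 0.57 to 0.68. On a second, dimmer probe set of EPHB3 the 6 h changes were 0.66 with VPA and 0.98 with the combination. With ATRA and the combination that probe set gave 0.27 and 0.17 at 24 h, and 0.42 and 0.44 at 72 h. EPHB1 rose with ATRA at 72 h by 0.39 ± 0.12 (adjusted p = 0.016), a call lost in 3 of the 5 fits without 1 array, at 0.35 to 0.43, and with the 3′ to 5′ ratio in the fit, at 0.38. The remaining members EPHA1, EPHA3, EPHA4, EPHA5, EPHA7, EPHB4 and EPHB6 passed in no comparison with DMSO. Their group means lay between 14.5 for EPHA7 and 43.2 for EPHB4, so most of them were measured near the lower quartile. The nearest to a call was EPHB4, a receptor of EFNB2, with 0.36 ± 0.15 in the combination at 72 h (adjusted p = 0.065). Its other probe set, nearly as bright, gave 0.61 with VPA at 6 h and 0.72 with VPA at 24 h, where the first gave 0.02 and 0.08.

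SEMA3F, a secreted semaphorin that repels axons through neuropilin 2, fell with ATRA from 24 h on. It measured 109, 163 and 97.6 on the ATRA arrays of 24 h, 224, 141 and 169 on those of the combination and 359, 342 and 336 on those of VPA, against 266, 330 and 260 on the DMSO arrays. The ATRA and combination arrays were all below the DMSO arrays, and the VPA arrays all above them. ATRA lowered it by -1.23 ± 0.15 (adjusted p = 3e-07) and the combination by -0.70 ± 0.15 (adjusted p = 0.00093).

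At 72 h SEMA3F measured 101, 109 and 120 with ATRA, 132, 115 and 118 with the combination and 454, 452 and 431 with VPA, against 306 and 297 with DMSO. It had fallen by -1.45 ± 0.17 with ATRA (2.73-fold lower, adjusted p = 8.3e-08) and by -1.30 ± 0.17 with the combination (adjusted p = 3.2e-07), and it had risen by 0.56 ± 0.17 with VPA (adjusted p = 0.039). The VPA call was lost in all 5 fits without 1 array, at 0.54 to 0.59. DMSO cells did not keep a constant level: SEMA3F rose in DMSO by 1.04 ± 0.15 at 24 h and by 1.13 ± 0.17 at 72 h against DMSO at 6 h (adjusted p = 5.3e-05 and 3.3e-05), where it measured 132, 133 and 148. The ATRA levels of 72 h were thus close to those of ATRA at 6 h (130, 117 and 135). Averaged over its 3 probe sets, 2 of them dimmer, the ATRA fall at 72 h was -0.61. Those 2 dimmer probe sets gave -0.36 and -0.01 with ATRA at 72 h, and 0.04 and -0.12 with the combination. The size of the fall thus rests on the brightest probe set, and with the combination at 72 h the others showed little or no fall.

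**Figure D3:**
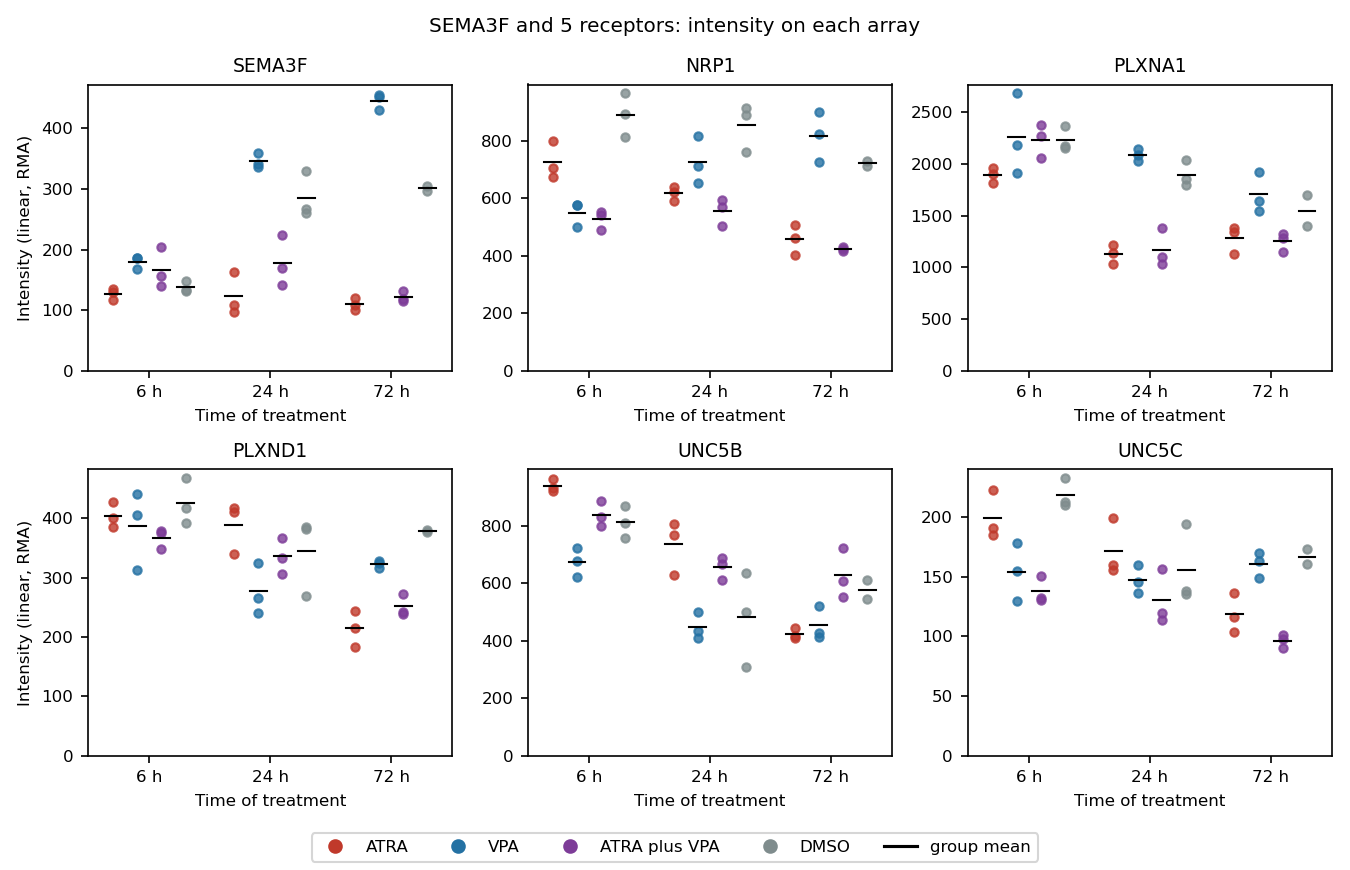
Intensity on each array of SEMA3F and of 5 receptors at 6 h, 24 h and 72 h, with ATRA, VPA, their combination and DMSO (points), and group means (lines). DMSO points of SEMA3F lie near 138 at 6 h and near 301 at 72 h, while the group means of ATRA stay near 110 to 130. NRP1 points with the combination lie below DMSO at every time.

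SEMA4C, a membrane semaphorin that binds plexin B2, rose with ATRA. It measured 370.9, 468.0 and 350.7 on the ATRA arrays of 24 h, 494, 314 and 254 on those of the combination and 247, 268 and 204 on those of VPA, against 201, 211 and 165 on the DMSO arrays. At 72 h it measured 443, 462 and 516 with ATRA, 411, 400 and 480 with the combination and 225, 229 and 232 with VPA, against 201 and 214 with DMSO. Arrays with ATRA, alone or combined, were above every DMSO array at both times. The rise with ATRA was 1.03 ± 0.16 at 24 h and 1.19 ± 0.18 at 72 h (adjusted p = 1.5e-05 and 6.2e-06), and with the combination 0.83 ± 0.16 and 1.05 ± 0.18 (adjusted p = 0.00027 and 2.7e-05). VPA alone gave no call, and neither did any treatment at 6 h, where the 12 arrays ran from 128 to 188. The 3′ to 5′ ratio was also highest in ATRA at 72 h, and with it in the fit SEMA4C kept its call. A dimmer second probe set gave 0.50 with ATRA at 72 h.

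SEMA4F, a membrane semaphorin of the same class, rose with each treatment at 72 h. It measured 69.9, 53.1 and 65.1 with the combination, 45.5, 38.9 and 37.6 with ATRA and 42.4, 43.3 and 42.3 with VPA, against 24.1 and 29.0 with DMSO. All 9 treated arrays were above DMSO, and the combination arrays were above the other treated arrays. The rise was 1.21 ± 0.15 with the combination (2.31-fold, adjusted p = 1.6e-07), 0.60 ± 0.15 with ATRA and 0.67 ± 0.15 with VPA (adjusted p = 0.0025 and 0.0037). The 2 single-agent calls were lost without DMSO 72 h replicate 1, at 0.47 and 0.54, and that with ATRA also with the 3′ to 5′ ratio in the fit, at 0.42. A dimmer second probe set gave 0.12 with the combination.

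SEMA4G, also of class 4, measured 96.2, 69.6 and 75.1 with the combination, 94.2, 60.3 and 56.6 with ATRA and 39.3, 58.1 and 49.4 with VPA at 72 h, against 40.8 and 31.7 with DMSO. It rose by 1.12 ± 0.21 with the combination (adjusted p = 0.0001) and by 0.91 ± 0.21 with ATRA (adjusted p = 0.0013), and its VPA arrays overlapped DMSO. Without DMSO 72 h replicate 2 the ATRA change was 0.73 and did not pass. The dimmer second probe set of SEMA4G gave 0.11 with ATRA and -0.05 with the combination at 72 h. At 6 h SEMA4G measured 49.5, 64.5 and 49.1 with VPA and 55.2, 62.2 and 52.0 with the combination, against 38.7, 36.6 and 37.9 with DMSO. Those arrays did not overlap, but the changes of 0.50 and 0.56 did not pass.

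SEMA4D, which signals through plexin B1, rose with VPA at the early times. It measured 53.7, 74.7 and 80.1 with VPA, 89.1, 81.9 and 65.7 with the combination and 49.5, 45.2 and 55.1 with ATRA at 6 h, against 36.4, 43.7 and 48.0 with DMSO. At 24 h it measured 60.4, 81.0 and 59.2 with VPA, 42.3, 65.4 and 61.5 with the combination and 38.4, 46.6 and 37.3 with ATRA, against 30.9, 34.9 and 45.4 with DMSO. VPA arrays lay above DMSO at both times, and combination arrays at 6 h. It rose by 0.68 ± 0.17 with VPA at 6 h and 0.84 ± 0.17 at 24 h (adjusted p = 0.0072 and 0.0011), and by 0.87 ± 0.17 and 0.59 ± 0.17 with the combination (adjusted p = 0.00059 and 0.013). At 72 h its combination arrays (50.2, 51.2 and 44.8) lay among those of DMSO (54.7 and 41.7). The VPA call at 6 h was lost in 2 of the 6 fits that left out 1 array (VPA 6 h replicate 3 and DMSO 6 h replicate 1), at 0.57, and that at 24 h when the 2 groups were fitted alone. The combination's call at 24 h was lost in 3 of the 6 fits without 1 array, at 0.47 to 0.51, DMSO 24 h replicate 1 among them.

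SEMA3E and SEMA3A, secreted semaphorins that lie next to each other on chromosome 7, rose with VPA at 72 h. SEMA3A, the classical repellent of sympathetic and sensory axons, measured 45.1, 51.3 and 47.4 with VPA at 72 h, against 26.6 and 27.5 with DMSO. SEMA3E, which signals through plexin D1, measured 51.2, 34.1 and 43.2 with VPA, against 20.6 and 22.7 with DMSO. No VPA array overlapped DMSO, and the rises were 0.80 ± 0.14 for SEMA3A (adjusted p = 0.00022) and 0.94 ± 0.14 for SEMA3E (adjusted p = 4.1e-05). SEMA3D, the gene on the other side of SEMA3A, gave 0.08 ± 0.14. With the combination SEMA3A gave 0.06 ± 0.14 at 72 h, and it was lower than with VPA alone by -0.74 ± 0.12 (adjusted p = 2.6e-05). SEMA3E rose with the combination too, by 0.55 ± 0.13 at 24 h and 0.44 ± 0.14 at 72 h. The first of these calls was lost under an alternative that left out no array, and the second in 2 of the 5 fits without 1 array, at 0.37. SEMA3A had risen with VPA at 6 h too, by 0.53 ± 0.12 (adjusted p = 0.0036). Both genes lay near the lower quartile in DMSO.

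Of the other semaphorins, SEMA6C rose by 0.51 with ATRA and 0.45 with the combination at 72 h, SEMA3B rose by 0.50 with the combination at 72 h, and SEMA5A fell by 0.43 with the combination at 24 h. Each of these calls was lost without at least 1 of the arrays, and that of SEMA6C with ATRA also with the 3′ to 5′ ratio in the fit, at 0.45. SEMA3C, SEMA3D, SEMA3G, SEMA4A, SEMA6A, SEMA6D and SEMA7A passed in no comparison with DMSO. Of these, SEMA6A, a ligand of PLXNA2, had group means between 81.2 and 103 and SEMA4A between 51.2 and 72.5, while the group means of the other 5 were at most 31.2. Their differences from DMSO were between -0.38 and 0.30. A second, dimmer probe set of SEMA6A gave -0.98 with ATRA and -0.78 with the combination at 72 h.

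**Figure D4:**
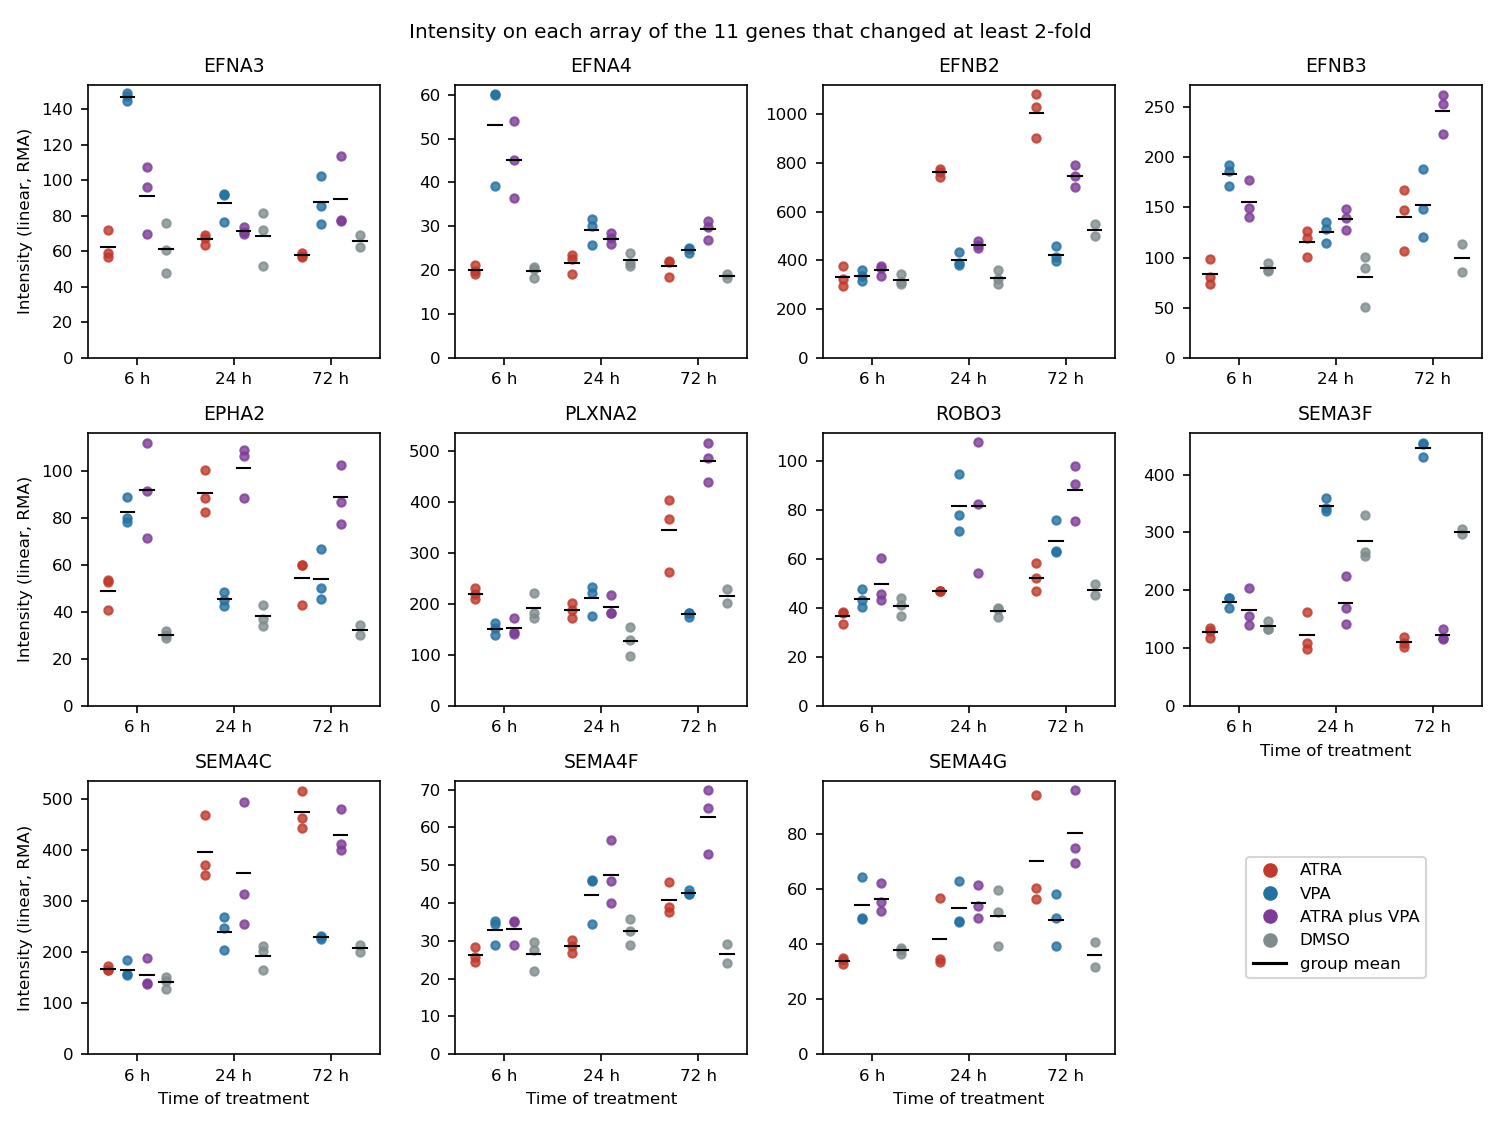
Intensity on each array (points) and group means (lines) of the 11 guidance genes that changed by at least 1 in log2 in a comparison with DMSO, at 6 h, 24 h and 72 h. At each time the groups stand in the order ATRA, VPA, ATRA plus VPA and DMSO. The panels of EFNA3 and EFNA4 peak with VPA at 6 h, those of EFNB2 and SEMA4C are high with ATRA at 24 h and 72 h, and PLXNA2 is highest with the combination at 72 h.

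The 8 plexins are the signalling receptors of semaphorins. At 24 h 5 of them rose and 1 fell with ATRA, against 12.5% and 6.03% of all genes. With the combination 3 rose and 1 fell at 24 h, against 13.5% and 7.79% of all genes. At 72 h 4 rose and 1 fell with the combination, against 14.9% and 16.6% of all genes. With ATRA at 24 h PLXNB1, the receptor of SEMA4D, rose by 0.96 ± 0.20 (adjusted p = 0.00086), PLXNB3 by 0.89 ± 0.13 (adjusted p = 8.7e-06), PLXNA3 by 0.80 ± 0.14 (adjusted p = 8.4e-05), PLXNA2 by 0.57 ± 0.14 (adjusted p = 0.0052) and PLXNC1 by 0.50 ± 0.11 (adjusted p = 0.0013). The PLXNC1 call was lost with the mean of its probe sets, at 0.20. A dimmer second probe set of PLXNB1 gave 0.07 with ATRA at 24 h. PLXNB1 measured 64.4, 45.8 and 51.5 with ATRA, 31.0, 46.4 and 49.8 with the combination and 32.8, 30.3 and 36.6 with VPA at 24 h, against 22.4, 23.7 and 36.4 with DMSO. PLXNB3, a receptor of SEMA5A, measured 79.3, 91.4 and 95.3 with ATRA, 55.0, 53.5 and 71.4 with the combination and 38.5, 41.0 and 33.4 with VPA, against 44.2, 41.8 and 57.5 with DMSO. For both genes the ATRA arrays were above every DMSO array, and the combination arrays overlapped DMSO. PLXNA1, a partner of neuropilins, fell by -0.75 ± 0.12 with ATRA (adjusted p = 1.6e-05) and by -0.70 ± 0.12 with the combination (adjusted p = 3e-05). It measured 1037, 1219 and 1137 with ATRA and 1378, 1097 and 1035 with the combination, against 1794, 1855 and 2037 with DMSO. The arrays with ATRA, alone or combined, were all below the DMSO arrays. At 72 h the change of PLXNA1 with ATRA was -0.26 ± 0.13 and did not pass.

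PLXNA2, a receptor of class 6 semaphorins and a neuropilin partner, rose at 72 h. It measured 439, 515 and 486 with the combination, 404, 262 and 367 with ATRA and 174, 183 and 182 with VPA, against 202 and 228 with DMSO. The combination and ATRA arrays were above DMSO and the VPA arrays below it. The rise was 1.15 ± 0.16 with the combination (2.23-fold, adjusted p = 1.3e-06) and 0.66 ± 0.16 with ATRA (adjusted p = 0.0022). Its 3 probe sets were all higher there, by 1.15, 1.00 and 1.83 with the combination. At 24 h they differed in sign, and the calls of PLXNA2 at that time (0.57, 0.73 and 0.62 with ATRA, VPA and the combination) were lost with the mean of the probe sets, at 0.17 to 0.24. That with ATRA was also lost without DMSO 24 h replicate 1, at 0.39.

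PLXND1, the receptor of SEMA3E, fell at 72 h. It measured 184, 215 and 244 with ATRA, 239, 243 and 272 with the combination and 328, 316 and 324 with VPA, against 381 and 376 with DMSO. All treated arrays were below DMSO, and the falls of -0.83 ± 0.15 with ATRA (adjusted p = 6.8e-05) and -0.59 ± 0.15 with the combination (adjusted p = 0.0023) passed. PLXNC1, the receptor of SEMA7A, rose by 0.87 ± 0.12 with VPA at 72 h (adjusted p = 1.4e-05), where it measured 42.0, 51.6 and 44.6 against 27.9 and 21.9 with DMSO, and by 0.66 ± 0.12 with the combination. Its other probe sets, which were dimmer, gave 0.05 and 0.15 with VPA, and the combination's call was lost with the mean of all, at 0.25. PLXNB2, the receptor of SEMA4C, had group means between 338 and 459 and passed nowhere, with the largest difference at 24 h of ATRA (0.45 ± 0.17, adjusted p = 0.062).

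NRP1, the neuropilin that binds SEMA3A and also serves vascular growth factor, fell in 6 comparisons. It measured 576, 499 and 575 on the VPA arrays of 6 h, 551, 488 and 543 on those of the combination and 675, 801 and 707 on those of ATRA, against 892, 968 and 815 on the DMSO arrays. It measured 507, 402 and 462 with ATRA, 422, 418 and 431 with the combination and 824, 900 and 725 with VPA at 72 h, against 730 and 713 with DMSO. VPA arrays thus lay below those of ATRA and DMSO at 6 h and overlapped DMSO at 72 h, when the ATRA arrays lay far below DMSO. VPA lowered it by -0.70 ± 0.10 at 6 h (adjusted p = 1.7e-05), ATRA by -0.46 ± 0.10 at 24 h and -0.66 ± 0.11 at 72 h (adjusted p = 0.0013 and 4e-05), and the combination by -0.76 ± 0.10, -0.62 ± 0.10 and -0.77 ± 0.11 at the 3 times. The VPA effect differed between 72 h and 6 h by 0.87 ± 0.15 (adjusted p = 0.00086). A second probe set, whose mean intensity of 654 was the same, gave larger falls, of -1.01 with VPA at 6 h and, with ATRA and the combination, of -0.89 and -1.28 at 24 h and -1.84 and -1.65 at 72 h. The size of the falls thus depends on the probe set, while their direction does not. The third, a dimmer one, gave -0.54 with VPA at 6 h and -0.13 with ATRA at 72 h. NRP2, the receptor of SEMA3F, rose by 0.46 ± 0.12 with VPA at 24 h alone (adjusted p = 0.012), and that call was lost in 3 of the 6 fits without 1 array, at 0.33 to 0.41, DMSO 24 h replicate 1 among them.

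Among Robo receptors, ROBO3, which lets commissural axons reach the midline, rose with VPA at 24 h. It measured 71.6, 94.8 and 78.0 with VPA, 108, 54.5 and 82.7 with the combination and 46.9, 46.9 and 47.1 with ATRA, against 36.4, 40.1 and 39.5 with DMSO. Every treated array was above DMSO, and the ATRA arrays lay below those of VPA and of the combination. The rise was 1.05 ± 0.16 with VPA (2.07-fold, adjusted p = 2.5e-05) and 1.01 ± 0.16 with the combination (adjusted p = 1.6e-05), and the ATRA change of 0.28 ± 0.16 did not pass. At 72 h it measured 75.5, 90.8 and 97.9 with the combination, 63.2, 75.9 and 62.9 with VPA and 46.8, 52.1 and 58.4 with ATRA, against 45.11 and 49.99 with DMSO, and the combination passed (0.87 ± 0.18, adjusted p = 0.00024).

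ROBO1, the main slit receptor of forebrain axons, rose by 0.37 to 0.51 in 4 comparisons, which were VPA and the combination at 6 h and ATRA and the combination at 24 h. It measured 2350, 2677 and 2412 with ATRA, 2570, 2577 and 2917 with the combination and 2274, 2148 and 2189 with VPA at 24 h, against 1889, 1892 and 1885 with DMSO. Every treated array was above DMSO, by the least with VPA, which did not pass. ROBO4, the endothelial member and the next gene to ROBO3 on chromosome 11, passed nowhere. Of the slits, SLIT3 fell by -0.58 ± 0.13 with ATRA at 72 h (adjusted p = 0.0008), where it measured 308, 461 and 376 against 550 and 574 with DMSO. It also fell by -0.35 ± 0.13 with the combination at 72 h (adjusted p = 0.034). The second call was lost in 3 of the 5 fits without 1 array, at -0.28 to -0.38, and with the mean of its probe sets, at -0.23. SLIT2 rose by 0.41 ± 0.12 with the combination at 72 h (adjusted p = 0.0099), which did not pass without DMSO 72 h replicate 1, at 0.28. SLIT1, with group means between 21.8 and 31.7, passed nowhere, and a second probe set of it, about as bright, gave -0.52 with ATRA at 24 h.

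Of the netrin system, 2 repellent receptors changed. UNC5B, which induces cell death when it has no netrin, measured 768, 630 and 808 with ATRA, 611, 668 and 688 with the combination and 499, 432 and 408 with VPA at 24 h, against 309, 499 and 636 with DMSO. The lowest of these DMSO values was replicate 1, and the ATRA arrays overlapped DMSO. The rise was 0.66 ± 0.15 with ATRA (adjusted p = 0.0022) and 0.50 ± 0.15 with the combination (adjusted p = 0.018), and without replicate 1 the second was 0.22 and did not pass, nor did it without 2 other single arrays, at 0.47 and 0.49. At 72 h ATRA lowered it by -0.45 ± 0.17 (adjusted p = 0.048), a call lost in all 5 fits without 1 array, at -0.37 to -0.53, and with the 3′ to 5′ ratio in the fit, at -0.27.

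UNC5C, another UNC5 receptor, measured 101, 97.7 and 89.8 with the combination, 116, 104 and 137 with ATRA and 169, 149 and 163 with VPA at 72 h, against 173 and 161 with DMSO. The combination arrays were the lowest and the VPA arrays overlapped DMSO. It fell by -0.79 ± 0.15 with the combination (adjusted p = 0.00013) and by -0.49 ± 0.15 with ATRA (adjusted p = 0.014). At 6 h it had fallen by -0.66 ± 0.14 with the combination and by -0.51 ± 0.14 with VPA (adjusted p = 0.00096 and 0.012). The ATRA call at 72 h was lost with the 3′ to 5′ ratio in the fit, at -0.34, and without DMSO 72 h replicate 1 or ATRA 72 h replicate 2, at -0.44 and -0.40. The VPA call at 6 h was lost without VPA 6 h replicate 3 or DMSO 6 h replicate 3, at -0.39 and -0.47. NTN1, NTN3, UNC5D and DCC passed nowhere, and NTNG1, a membrane-anchored netrin, rose by 0.40 ± 0.12 with the combination at 6 h at a level below the lower quartile, a call lost in 4 of the 6 fits without 1 array.

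The combination was then set against each single agent. Percentages in parentheses in this paragraph are shares of all genes, set beside the counts of members. Against ATRA, 9 members were higher with the combination at 6 h (7.13% of all genes) and 3 lower (4.84%). At 24 h 4 were higher (4.86%) and 3 lower (4.63%), and at 72 h 13 were higher (14.6%) and 4 lower (6.2%). Against VPA, 0 members were higher at 6 h (0.452% of all genes) and 1 lower (0.117%). At 24 h 5 were higher (5.13%) and 3 lower (6.74%), and at 72 h 14 were higher (12.3%) and 8 lower (13.4%). At 6 h the members that were higher than with ATRA included EFNA4 (1.12 ± 0.13), EFNB3 (0.89 ± 0.19) and EPHA2 (0.88 ± 0.15), and those lower were PLXNA2, UNC5C and NRP1 (-0.53, -0.53 and -0.46). The PLXNA2 call was lost in 3 of the 6 fits without 1 array and with the mean of its probe sets, at -0.05, and that of UNC5C without ATRA 6 h replicate 3, at -0.45. Against VPA the only call was EFNA3, lower by -0.71 ± 0.17 (adjusted p = 0.037) and lost in 5 of the 6 fits without 1 array.

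At 24 h the combination stood above ATRA for ROBO3 (0.73 ± 0.16), SEMA4F (0.70 ± 0.13) and SEMA3F (0.54 ± 0.15), and below it for EFNB2 (-0.71 ± 0.09), PLXNB3 (-0.57 ± 0.13) and PLXNA3 (-0.51 ± 0.14). It stood above VPA for EPHA2 (1.14 ± 0.15), PLXNB3 (0.65 ± 0.13) and UNC5B (0.56 ± 0.15), and below it for SEMA3F (-0.98 ± 0.15), PLXNA1 (-0.85 ± 0.12) and NRP1 (-0.38 ± 0.10). At 72 h it stood above ATRA for EFNB3 (0.83 ± 0.19), ROBO3 (0.73 ± 0.16) and EPHA2 (0.71 ± 0.15), and below it for EFNB2 (-0.43 ± 0.09), EPHB1 (-0.34 ± 0.11) and SEMA7A (-0.33 ± 0.11). It stood above VPA for PLXNA2 (1.41 ± 0.14), SEMA4C (0.90 ± 0.16) and EFNB2 (0.82 ± 0.09), and below it for SEMA3F (-1.87 ± 0.15), NRP1 (-0.94 ± 0.10) and SEMA3A (-0.74 ± 0.12). Of these, the calls of EPHB1 and SEMA7A were lost in 3 and 4 of the 6 fits without 1 array, those of SEMA3F and PLXNA3 against ATRA at 24 h in 3 each, that of UNC5B against VPA at 24 h in 4 and that of NRP1 in 2. With the 3′ to 5′ ratio in the fit the calls of EPHB1 (-0.33), SEMA7A (-0.30), UNC5B (0.41) and NRP1 (-0.33) were lost, and with the mean of probe sets those of SEMA3F against ATRA (0.22) and UNC5B against VPA (0.35) at 24 h.

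Where the effects of both agents simply add on the log2 scale, the combination equals their sum. The difference from that sum passed for 0 members at 6 h (0% of all genes), with 2 members at an unadjusted p under 0.05. At 24 h it passed as lower for 2 members, against 0.662% of all genes, and at 72 h as higher for 1, against 1.31% of all genes. EFNB2 changed by 0.50 with the combination at 24 h, against a sum of 1.5 from ATRA (1.21) and VPA (0.28), a difference of -0.99 ± 0.13 (adjusted p = 3.5e-05). PLXNA3 measured 39.6, 30.3 and 33.2 with the combination, 51.3, 49.8 and 46.5 with ATRA and 38.6, 46.1 and 35.6 with VPA, against 25.1, 29.8 and 28.8 with DMSO. Its value was 0.29 with the combination against a sum of 1.30, a difference of -1.02 ± 0.20 (adjusted p = 0.0052). Both differences were kept under every alternative. UNC5B at 72 h measured 551, 609 and 723 with the combination, 410, 417 and 444 with ATRA and 413, 427 and 521 with VPA, against 546 and 610 with DMSO. Its difference of 0.91 ± 0.23 (adjusted p = 0.033) was lost with the mean of its probe sets, at 0.77, and in 8 of the 11 fits without 1 array, at 0.81 to 0.99.

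**Figure D5:**
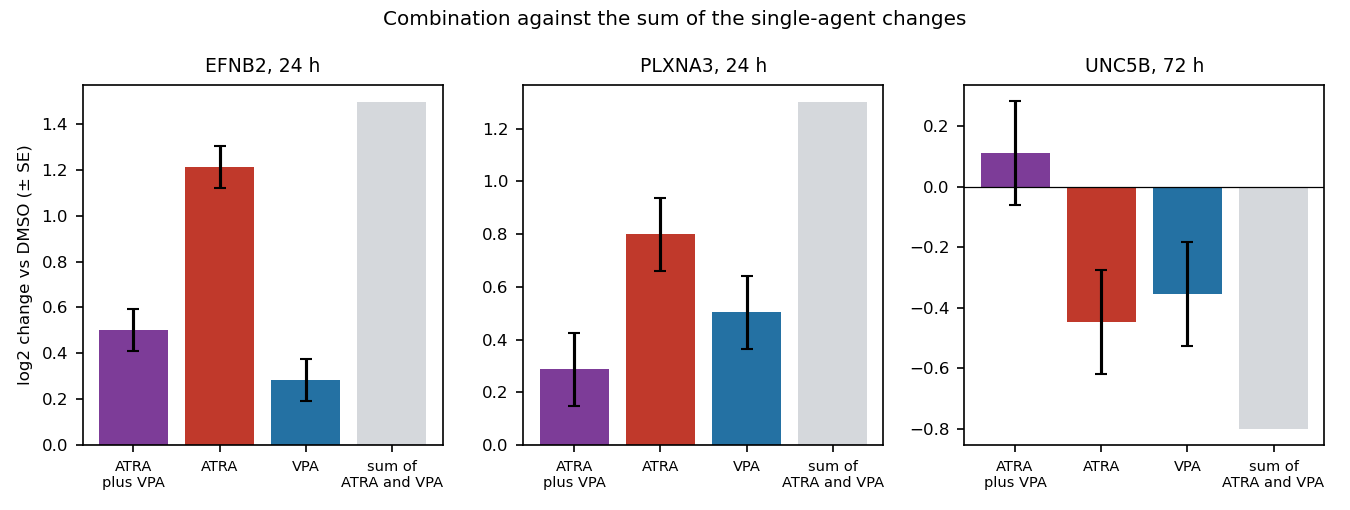
Log2 change against DMSO ± SE with the combination, ATRA and VPA, and the sum of the ATRA and VPA changes (drawn with no error bar), for the 3 guidance genes whose difference from the sum passed the test. The combination bar is below the sum for EFNB2 (0.50 against 1.5) and PLXNA3 (0.29 against 1.30) at 24 h and above it for UNC5B (0.11 against -0.80) at 72 h.

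The vehicle arrays themselves moved with time. Between DMSO at 24 h and DMSO at 6 h, 3 members were higher, against 5.19% of all genes, and 6 lower, against 10% of all genes, but without DMSO 24 h replicate 1 only 3 calls were made in all. Between DMSO at 72 h and DMSO at 6 h, 4 were higher, against 5.08%, and 2 lower, against 5.5%. SEMA3F was higher at both later times, as given above. EPHB1 (0.36 ± 0.11) and ROBO1 (0.29 ± 0.08) were higher at 24 h, and EFNB2 (0.72 ± 0.10), SEMA4C (0.56 ± 0.18) and ROBO1 (0.31 ± 0.09) were higher at 72 h. SEMA5A, a semaphorin with both attractive and repellent actions, measured 28.2 and 33.9 at 72 h, against 57.2, 74.0 and 68.8 at 6 h, a fall of -1.08 ± 0.17 (adjusted p = 7.5e-05), and PLXNA1 was lower by -0.53 ± 0.13. At 24 h UNC5B (-0.81 ± 0.15), PLXNB1 (-0.78 ± 0.20) and PLXNA2 (-0.60 ± 0.14) were lower than at 6 h. Without DMSO 24 h replicate 1 the calls at 24 h of EPHB1, ROBO1, PLXNB1 and PLXNA2 were lost, at 0.29, 0.29, -0.66 and -0.42. With the 3′ to 5′ ratio in the fit those of EPHB1, ROBO1, UNC5B, PLXNB1 and PLXNA2 were lost, at 0.35, 0.27, -0.63, -0.56 and -0.63, as were those at 72 h of SEMA4C and ROBO1, at 0.22 and 0.29. In fits without 1 array the 72 h call of SEMA4C was lost in all 5, that of ROBO1 in 4 and that of PLXNA1 in 1, at -0.39. Only the SEMA3F calls at both times and the EFNB2 and SEMA5A calls at 72 h were kept under every alternative.

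Treatment effects at 72 h were also compared with those at 6 h. The ATRA effect was higher at 72 h for 6 members, against 5.57% of all genes, and lower for 4, against 11.8%. The VPA effect was higher for 3 members, against 1.24%, and lower for 2, against 0.762%. The effect of the combination was higher for 5 members, against 7.9%, and lower for 2, against 9.12%. The largest of these differences included those of SEMA3F (-1.34 ± 0.22 with ATRA and -1.56 ± 0.22 with the combination), PLXNA2 (1.48 ± 0.22 with the combination), EFNA1 (-1.19 ± 0.24 with VPA) and SEMA3E (1.11 ± 0.19 with VPA).

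For context, a list of other guidance molecules (such as adhesion molecules) and a list of the intracellular effectors of guidance receptors were followed. Of the first, 26 of 36 genes were measured. At 72 h 4 (15.4%) rose and 4 (15.4%) fell with ATRA, against 10.7% and 20.2% of all genes. With VPA 2 (7.69%) rose, against 4.51% of all genes, and with the combination 5 (19.2%) rose and 3 (11.5%) fell, against 14.9% and 16.6%. The other largest rises were DSCAM and L1CAM with ATRA (0.67 and 0.44), NEO1 with VPA (0.44), and NFASC and NRCAM with the combination (0.91 and 0.53), all adhesion molecules of the immunoglobulin family, and the other largest falls were CNTN1 with ATRA (-1.0) and CDON with the combination (-1.03). FLRT3, an adhesion molecule that binds UNC5B, fell by -2.03 with ATRA and -1.21 with the combination (adjusted p = 2.3e-12 and 4.4e-08) and rose by 0.61 with VPA. Of the effectors, 53 of 62 were measured. At 72 h 12 (22.6%) rose and 11 (20.8%) fell with ATRA, against 10.7% and 20.2% of all genes. With VPA 6 (11.3%) rose and 1 (1.89%) fell, against 4.51% and 2.15%, and with the combination 20 (37.7%) rose and 3 (5.66%) fell, against 14.9% and 16.6%. The largest rises were DCLK1, a microtubule-associated kinase of growth cones, by 3.4 with ATRA and 3.57 with the combination, and DPYSL3, a collapsin response mediator, by 2.19 and 2.42. RND2 and MICAL2 rose most with VPA (0.79 and 0.57), and KALRN, a guanine nucleotide exchange factor of neurons, fell (-0.77). RHOA and FARP1, which act on the actin cytoskeleton, had the largest falls with ATRA (-0.75 and -0.61), and CHN1 and PAK2 those with the combination (-0.35 and -0.34). With ATRA at 24 h 16 effectors (30.2%) rose and 1 (1.89%) fell, against 12.5% and 6.03% of all genes.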

How the data were processed

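Gene expression was measured on 35 Affymetrix human expression arrays, 1 per sample. The deposited values are intensities on a linear scale from RMA (background correction, quantile normalization and probe set summary), per the submitters' processing notes, whose version is not given in the sources used here. They ran between 9.48 and 26442. No scanner files were used, and no depth exists for arrays, so the number of arrays limits the precision.

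Probe sets were named through GEO's platform annotation: of 22930, 19415 had 1 symbol, 125 several, 3292 none and 98 were controls. A gene with several probe sets (4507 genes) was represented by that with the highest mean log2 intensity. The 12 groups were fitted in 1 model without a replicate block, on log2 of intensity plus 1, with lmFit, contrasts.fit and eBayes of limma 3.58.1 in R 4.3.3 (23 residual degrees of freedom). The Benjamini-Hochberg method was applied to the p-values of all 11940 genes in each of 23 contrasts, with a threshold of 0.05, and the code was tested on simulated data. The 1 added to each intensity makes log2 changes slightly smaller, most so for dim genes. Folds are of intensity plus 1.

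The members, the gene lists, the tests and the rule for named genes were chosen with earlier results of these data known. Arrays are given for members with a call of at least 1 in log2, the 4 largest rises and falls of each treatment are named, and the 3 largest of other contrasts. Further members were named after their values were seen. Alternatives were a replicate block, a fit of the compared groups alone, leaving out the dimmest 33.3% of genes, the mean of all probe sets, a pseudocount of 32, a second quantile normalization, the 3′ to 5′ ratio as a covariate, and leaving out each array. Promoters are RefSeq windows of GRCh38.p14.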

Additional observations from a re-analysis of the deposited data

Results flagged for a closer look

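For 22 pairs of member and treatment the effect against DMSO differed between 72 h and 6 h by a test of the difference itself. The values below are the effect at 72 h minus that at 6 h in log2, with limma's adjusted p, and all effects of a time share its DMSO arrays. Of the 22, 8 were kept under every alternative and without any single array.

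With ATRA the difference was positive for SEMA4G (1.06, adjusted p = 0.0095), SEMA4C (0.93, adjusted p = 0.0068), EFNB2 (0.88, adjusted p = 3.2e-05), SEMA4F (0.60, adjusted p = 0.035), EPHB1 (0.51, adjusted p = 0.03) and SEMA7A (0.48, adjusted p = 0.049). It was negative for SEMA3F (-1.34, adjusted p = 8e-05), PLXND1 (-0.75, adjusted p = 0.0082), SLIT3 (-0.66, adjusted p = 0.0072) and UNC5B (-0.66, adjusted p = 0.047). SEMA7A, which passed in neither comparison with DMSO, gave 0.26 at 72 h and -0.22 at 6 h. In the 11 fits without 1 array the UNC5B call was lost in 10 and the SEMA4F call in 6. Those of EPHB1 and SEMA7A were lost in 7 each, and that of SEMA4G in 1. With the 3′ to 5′ ratio in the fit, 3 members in place of 10 passed. The values of those lost were 0.79 for SEMA4G, 0.57 for SEMA4C, 0.41 for SEMA4F, 0.50 for EPHB1, 0.43 for SEMA7A, -0.62 for PLXND1 and -0.46 for UNC5B. That ratio was highest in ATRA at 72 h, and its part in these results beyond this fit was not tested.

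With VPA the difference was positive for SEMA3E (1.11, adjusted p = 0.00063), NRP1 (0.87, adjusted p = 0.00086) and PLXNC1 (0.64, adjusted p = 0.032). It was negative for EFNA1 (-1.19, adjusted p = 0.0032), whose change was -0.30 at 72 h and 0.90 at 6 h, and for EFNA4 (-0.98, adjusted p = 0.0031). The EFNA1 difference was lost without DMSO 72 h replicate 1, at -0.97. That of PLXNC1 was lost in 5 of the 11 fits without 1 array, at 0.47 to 0.65. NRP1 gave 0.17 at 72 h and -0.70 at 6 h.

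With the combination it was positive for PLXNA2 (1.48, adjusted p = 7.6e-06), SEMA4C (0.92, adjusted p = 0.0066), SEMA4F (0.89, adjusted p = 0.0017), SEMA6C (0.60, adjusted p = 0.039) and SEMA3E (0.57, adjusted p = 0.036). It was negative for SEMA3F (-1.56, adjusted p = 6.4e-06) and SEMA4D (-0.84, adjusted p = 0.02). The calls of SEMA3E and SEMA6C were lost in 7 each of the 11 fits without 1 array. That of SEMA4D was lost in 3, at -0.75 to -0.65. SEMA3F in DMSO cells was itself higher at 72 h than at 6 h by 1.13, so both of its differences include that change of the vehicle arrays.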

How the results depend on the processing

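No named change reversed under any alternative. Without the arrays of other groups the number of members past 0.05 was 9 instead of 15 for ATRA at 24 h, 1 instead of 7 for VPA at 24 h and 6 instead of 19 for the combination at 24 h. In the same fits it was 0 instead of 1 for the combination against VPA at 6 h, 4 and 5 instead of 7 and 8 against ATRA and VPA at 24 h, 11 instead of 17 against ATRA at 72 h, 1 instead of 9 for DMSO at 24 h against 6 h, 10 instead of 6 for DMSO at 72 h against 6 h, and 12 instead of 7 for the combination's effect at 72 h minus 6 h. These fits have fewer arrays to estimate the spread. For ATRA at 6 h the mean of all probe sets gave 2 members and a pseudocount of 32 gave 0, against 1. A second quantile normalization gave 0 for the combination against VPA at 6 h. For the difference from the sum at 72 h the mean of probe sets and the 3′ to 5′ ratio gave 0 each, and the pseudocount of 32 and the second quantile normalization 2 each, against 1. The ratio also gave 1 for DMSO at 24 h against 6 h and 3 for the ATRA effect at 72 h minus 6 h, and leaving out the dimmest 33.3% of genes gave 3 for the VPA effect, against 5. The cause of these shifts was not tested.

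Leaving out 1 array gave 0 to 1 members for ATRA at 6 h and for the combination against VPA at 6 h, 4 to 9 for the combination against ATRA at 24 h, 5 to 10 against VPA at 24 h, 10 to 18 against ATRA at 72 h, 0 to 3 for the difference from the sum at 72 h, 3 to 13 for DMSO at 24 h and 3 to 5 for DMSO at 72 h against 6 h, 6 to 11 for the ATRA effect and 4 to 8 for the combination's effect at 72 h minus 6 h. The lowest of these for DMSO at 24 h came without DMSO 24 h replicate 1. The other counts stayed within 1.5 times of the first.

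The replicate numbers are shared by the groups but nothing ties them to a culture or day: over 42 pairs the correlation of deviations ran between -0.296 and 0.313 and exceeded 0.1 in 9. With the replicate block 15 members passed for ATRA at 72 h and 21 for the combination at 72 h, and no count moved by over 1.5 times. The 2 DMSO arrays at 72 h and levels near the lower quartile limit the precision.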

Other observations

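The genes beside the 3 A ephrins that rose with VPA at 6 h were looked up on chromosome 1 after the ephrins' values were seen. Of the nearest genes on either side, 6 were measured, and none passed the test with VPA at 6 h. ZBTB7B and ADAM15 on one side gave log2 values of -0.22 and -0.20, and SLC50A1, DPM3, TRIM46 and MUC1 on the other gave 0.02, -0.14, 0.09 and -0.02, with adjusted p-values of 0.33, 0.44, 0.95, 0.68, 0.79 and 0.98 in limma's fit. Whether the ephrins differ from these neighbours was not tested.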
